A study of Homo sapiens with 18 samples.

Results

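The comparison described here set siCtrl, MDA-MB-231 cells transfected with a nontargeting siRNA, against Jag1WT, the untransfected parental cells. MDA-MB-231 is an established triple-negative breast cancer cell line. The groups were taken from the sample labels, and they held 6 of the 18 RNA-seq libraries of the series, 3 of siCtrl and 3 of Jag1WT. Both groups carried wild-type JAG1. In both, 50000 cells were embedded in 2 mg/mL Matrigel on a 4 mg/mL Matrigel coating, the medium was changed on day 4, and the spheroids were lysed on day 7. The siRNA was given with a lipid reagent 7 h before seeding. The Jag1WT cells received neither siRNA nor reagent, so the effect of the nontargeting duplex and the effect of the reagent and handling cannot be told apart. The labels number the libraries of each group as biological replicates 1 to 3, and this number entered the test as a block.

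An siRNA is a short RNA duplex whose guide strand is loaded into an Argonaute protein and directs it to complementary mRNA. A nontargeting siRNA has no intended target, and it serves as the baseline for targeted knockdowns because the duplex and the lipid carrier can act on cells by themselves. Double-stranded RNA can be detected by TLR3, RIG-I, MDA5 and the kinase PKR (EIF2AK2), which lead to interferon and NF-kB target genes. Cationic lipids can burden endosomes and lysosomes and alter lipid synthesis, and a short guide can repress off-target mRNAs through its seed. These routes set part of the gene lists that were examined. Others covered the cell cycle, mitochondrial genes, hypoxia, matrix and adhesion, TGFb signalling, EMT and the Notch pathway. All lists were chosen with earlier results of these data known.

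The total count per library ranged from 13479590 to 15328059 in Jag1WT and from 13336576 to 15307613 in siCtrl. All 8 mesenchymal and basal markers of this cell line, VIM and CD44 among them, were above 1 CPM, with a summed level of 7720 to 9959 CPM in Jag1WT and 8000 to 10244 CPM in siCtrl. ESR1, the oestrogen receptor, had a count of 0 in all 6 libraries, and PTPRC, the pan-leukocyte marker, stayed under 1 CPM. The 9 luminal markers summed to 234 to 254 CPM in Jag1WT and 238 to 263 CPM in siCtrl. The fibroblast markers summed to 5.93 to 10.2 and 6.72 to 11.4 CPM, and the endothelial markers to 13.8 to 14.5 and 12.6 to 13.7 CPM. The leukocyte markers summed to 101 to 136 and 114 to 161 CPM, nearly all of it CD68, a lysosomal protein.

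The replicate number separated the libraries more than the transfection did. The 12797 genes tested had more than 1 CPM in at least 3 of the 6 libraries. On the log2(CPM + 1) scale, the median share of a gene's sum of squares was 62.2% between replicate numbers. Between siCtrl and Jag1WT it was 8.55%. The replicate number has 2 degrees of freedom and the group 1, so the first share would be the larger even for values without structure. Both replicate 2 libraries lay at the positive end of the first principal component, with scores of 18.7 (Jag1WT) and 24.5 (siCtrl), and the other 4 libraries had negative scores. Jag1WT 3 lay apart on the second component with a score of 18.6. The root mean square log2 distance between libraries of the same number was 0.196, 0.189 and 0.253 for replicates 1, 2 and 3, against 0.235 to 0.368 within a group. The third pair was the loosest, and siCtrl 3 was closer to Jag1WT 1, at 0.247, than to Jag1WT 3.

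**Figure D1:**
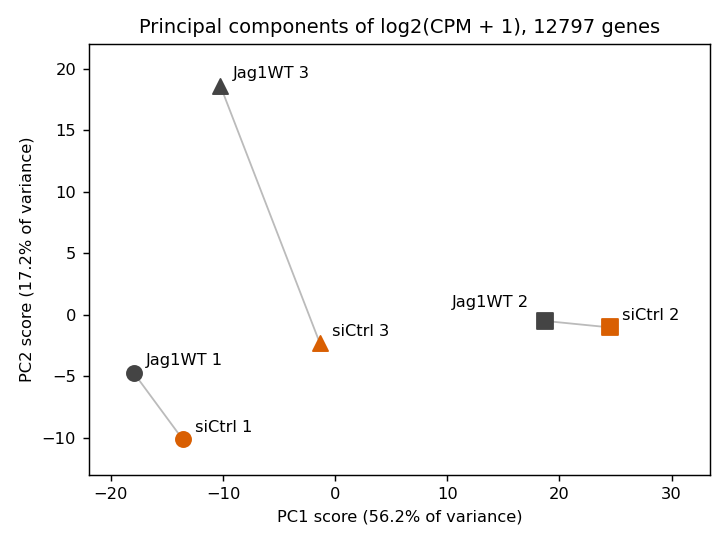
Principal component scores of the 6 libraries from log2(CPM + 1) of 12797 genes, with the first component on the x axis (56.2% of the variance) and the second on the y axis (17.2%). Dark symbols are Jag1WT, orange symbols are siCtrl, the shape gives the replicate number, and grey lines join libraries of the same number; the replicate 2 libraries sit together on the right and Jag1WT 3 sits at the top.

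The nontargeting siRNA left nearly all transcripts within a narrow range of their level in parental cells. The median absolute log2 fold change was 0.085, and the median range of the means of the 3 replicate numbers was 0.238. A fitted change of more than 1.5-fold was seen for 115 genes (0.899%), whereas 1080 genes (8.44%) had a range of replicate means above 1.5-fold. The 95% confidence interval of the fold change lay within 1.5-fold in both directions for 10752 genes (84.0%) and within 2-fold for 12456 genes (97.3%). The intervals of the remaining genes reached beyond these sizes.

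**Figure D2:**
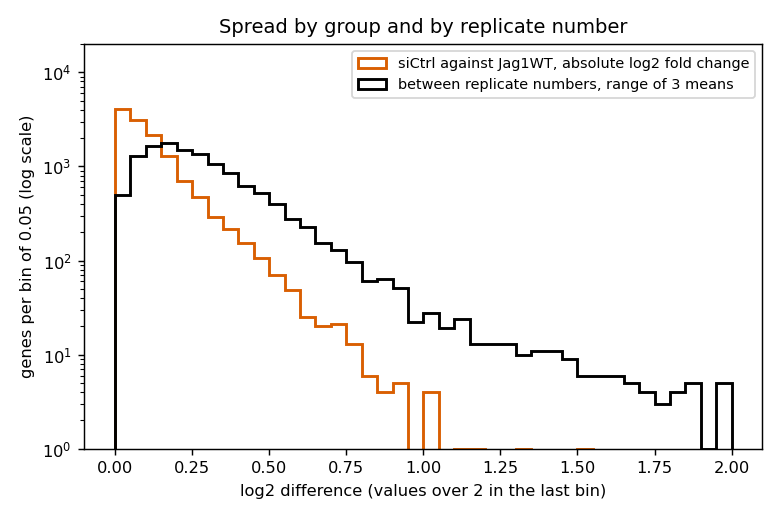
Histograms over 12797 genes of the absolute log2 fold change of siCtrl against Jag1WT (orange) and of the range of the 3 replicate-number means on log2(CPM + 1) (black), in bins of 0.05 with a log y axis. The black curve reaches further right, with medians of 0.238 against 0.085; a range of 3 means and a difference of 2 means are not the same statistic.

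A gene was called where the Benjamini-Hochberg FDR of edgeR's quasi-likelihood test was below 0.05 and the fold change was above 1.5. This held for 1 gene, SLCO4A1, which is 0.00781% of the genes tested. Without the fold threshold 9 genes (0.0703%) passed, 4 higher in siCtrl (AREG, FOXM1, TRNL1 and AKAP12) and 5 lower (MMP10, ICAM1, SLCO4A1, KCTD12 and ZBED6). At an unadjusted p below 0.05, 616 genes (4.81%) were higher and 606 (4.74%) were lower. These are the shares to set beside every count of list members below at that threshold. In the fit without the replicate block none of the 9 genes passed, and 176 genes had an unadjusted p below 0.05.

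**Figure D3:**
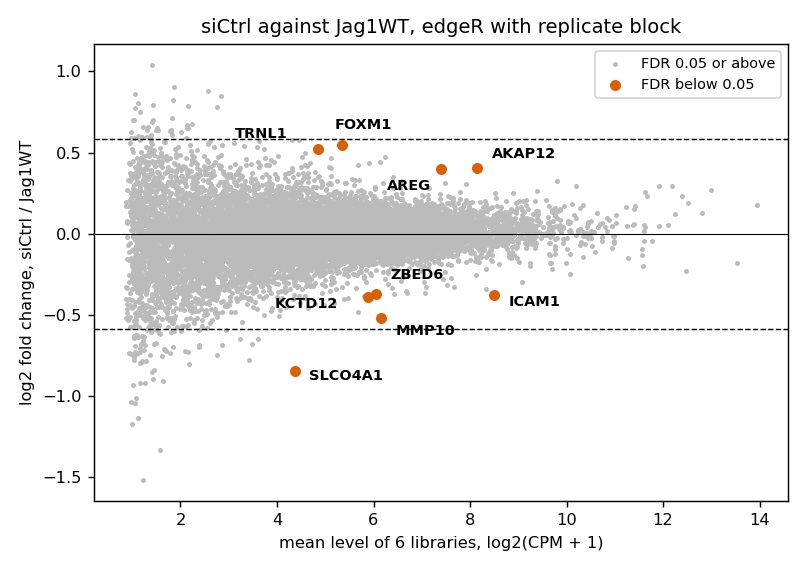
Log2 fold change of siCtrl over Jag1WT (y axis) against the mean level of the 6 libraries as log2(CPM + 1) (x axis) for 12797 genes. Orange points are the 9 genes with an FDR below 0.05, dashed lines mark 1.5-fold, and SLCO4A1 is the only orange point beyond them.

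JAG1, the Notch ligand that the study's targeted siRNA was designed against, served as a check against a mix-up with the siJag1 libraries. Neither group was meant to change JAG1, so an exchange of the siCtrl and Jag1WT labels would not show in its level. The gene lies at chr20:10637684-10673999 on the minus strand (hg38, GENCODE v44, as for all genes below). Its level was 433, 585 and 522 CPM in Jag1WT 1, 2 and 3 and 441, 626 and 531 CPM in siCtrl 1, 2 and 3. The groups overlapped, and the order of the replicate numbers was the same in both. The log2 fold change was 0.040 (SE 0.063), with a 95% interval of 0.938-fold to 1.13-fold and an adjusted p of 0.895 by edgeR. In siJag1, the JAG1-targeted transfection, the level was 166, 203 and 131 CPM.

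The promoter sequences of 4 genes that the results below turn on are shown first, as the 250 bases before the RefSeq transcription start (GRCh38.p14), 5′ to 3′ on the gene's strand. Of the 9 genes that passed, 6 had an entry in the RefSeq promoter table. ICAM1, AREG and MMP10 are shown because they passed the test, and CCNB1 as a mitotic gene of small p outside the G2 and M phase list. Capitals mark a motif found by its letters on either strand: an NF-kB-type GGAAATTCC for ICAM1, a cAMP response element TGACGTCA for AREG, a TATA box TATAAA for MMP10 and CCAAT boxes for CCNB1. Each gene had only its own motif marked, and matches of the other motifs stay in lower case. TATAAA also occurs in the ICAM1 and AREG windows, and CCAAT in the MMP10 window. The motifs were chosen with the results known, and a match is a description and not evidence of binding.
ICAM1 (chr19:10270870-10271119, plus strand): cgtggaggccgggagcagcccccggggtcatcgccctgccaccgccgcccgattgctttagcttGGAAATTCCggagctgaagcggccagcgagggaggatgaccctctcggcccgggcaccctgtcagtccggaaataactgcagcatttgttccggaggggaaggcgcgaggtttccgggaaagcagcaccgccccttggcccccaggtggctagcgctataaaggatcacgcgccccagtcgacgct
AREG (chr4:74444886-74445135, plus strand): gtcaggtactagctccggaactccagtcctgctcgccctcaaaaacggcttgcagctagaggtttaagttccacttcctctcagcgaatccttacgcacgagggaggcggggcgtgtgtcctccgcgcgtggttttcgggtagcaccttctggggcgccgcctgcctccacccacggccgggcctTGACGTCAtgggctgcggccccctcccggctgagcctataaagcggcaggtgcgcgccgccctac
MMP10 (chr11:102780629-102780878, minus strand): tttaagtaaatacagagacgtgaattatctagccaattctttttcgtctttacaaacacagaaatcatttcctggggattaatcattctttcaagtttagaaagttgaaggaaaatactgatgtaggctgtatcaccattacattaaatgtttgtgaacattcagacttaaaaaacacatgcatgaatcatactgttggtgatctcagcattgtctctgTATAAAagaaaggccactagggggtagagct
CCNB1 (chr5:69166900-69167149, plus strand): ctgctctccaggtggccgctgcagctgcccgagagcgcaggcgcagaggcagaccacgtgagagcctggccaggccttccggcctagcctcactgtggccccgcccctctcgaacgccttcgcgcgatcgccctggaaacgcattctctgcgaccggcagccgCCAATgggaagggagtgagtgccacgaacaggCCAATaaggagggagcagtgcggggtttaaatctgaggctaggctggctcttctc
The same letters were present in 0.413%, 1.65%, 10.7% and 32.0% of all 35116 promoter windows of this length, in the order ICAM1, AREG, MMP10 and CCNB1 motif. The NF-kB-type match begins 186 bases before the ICAM1 start, and the cAMP response element 65 bases before the AREG start. The TATA box begins 31 bases before the MMP10 start. CCNB1 has a pair of CCAAT matches beginning 87 and 55 bases before the start.

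Among secreted and surface proteins, MMP10 had the smallest p of all genes. MMP10 (stromelysin 2) is a secreted metalloprotease that degrades matrix proteins, and it lies at chr11:102770502-102780628 on the minus strand. Its level was 79.5, 67.5 and 100 CPM in Jag1WT and 56.8, 46.5 and 70.3 CPM in siCtrl. Each siCtrl library was lower than the Jag1WT library of its number, while the groups overlapped. MMP10 fell with a log2 fold change of -0.52 (SE 0.069, adjusted p 0.00223 by edgeR), which is 0.697-fold, and the 3 pairs gave -0.48, -0.53 and -0.51 on the log2(CPM + 1) scale. In siJag1 the level was 38.1, 6.60 and 38.3 CPM.

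ICAM1, an adhesion receptor for leukocyte integrins that NF-kB induces, fell as well. The gene lies at chr19:10271093-10286615 on the plus strand. Its level was 328, 419 and 482 CPM in Jag1WT and 274, 332 and 336 CPM in siCtrl. The highest siCtrl value was just above the lowest Jag1WT value, so the groups overlapped. The log2 fold change was -0.38 (SE 0.068, adjusted p 0.0261 by edgeR). In siJag1 it was 422, 298 and 477 CPM.

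AREG, which encodes the EGF receptor ligand amphiregulin, rose. The gene lies at chr4:74445136-74455005 on the plus strand. Its level was 103, 189 and 140 CPM in Jag1WT and 125, 253 and 200 CPM in siCtrl. All pairs rose, and the spread between replicate numbers was wider than the change. The log2 fold change was 0.40 (SE 0.066, adjusted p 0.0235 by edgeR). In siJag1 the level was 91.0, 104 and 117 CPM.

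SLCO4A1, a plasma membrane transporter of organic anions that include thyroid hormone, lies at chr20:62642503-62685785 on the plus strand. Its level was 19.4, 20.8 and 36.3 CPM in Jag1WT and 14.3, 14.7 and 12.4 CPM in siCtrl. The groups did not overlap, which held for 6.3% of all genes tested. The log2 fold change was -0.85 (SE 0.15, adjusted p 0.0261 by edgeR). Jag1WT 3 was far above the other libraries: without replicate 3 the change was -0.47 with an adjusted p of 0.110, and with robust empirical Bayes the adjusted p was 0.285.

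KCTD12, an auxiliary subunit of GABA-B receptors, and ZBED6, a transcriptional repressor of IGF2, fell by similar amounts. KCTD12 (chr13:76880175-76886405, minus strand) was at 75.4, 50.4 and 72.8 CPM in Jag1WT and 58.6, 40.9 and 52.7 CPM in siCtrl, with a log2 fold change of -0.39 (SE 0.072, adjusted p 0.0371 by edgeR). ZBED6 (chr1:203795623-203854124, plus strand) was at 81.2, 59.6 and 80.4 CPM in Jag1WT and 61.1, 49.4 and 61.1 CPM in siCtrl, with a log2 fold change of -0.37 (SE 0.070, adjusted p 0.0424). Both were lower in every pair. With DESeq2 the adjusted p was 0.0978 for both genes, for KCTD12 it was 0.0603 by edgeR without replicate 3, and for ZBED6 it was 0.0509 with limma on log2(CPM + 1). ZBED6 shares its locus and strand with ZC3H11A, so its reads may not be separable from that gene's.

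AKAP12, a scaffold for protein kinases A and C, rose from 115, 462 and 140 CPM in Jag1WT to 131, 637 and 209 CPM in siCtrl. The gene lies at chr6:151239967-151358559 on the plus strand. Both replicate 2 libraries were the highest of their group. The log2 fold change was 0.40 (SE 0.072, adjusted p 0.0261 by edgeR), and it turned to -0.50 when siCtrl 2 was left out of a fit with no block.

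**Figure D4:**
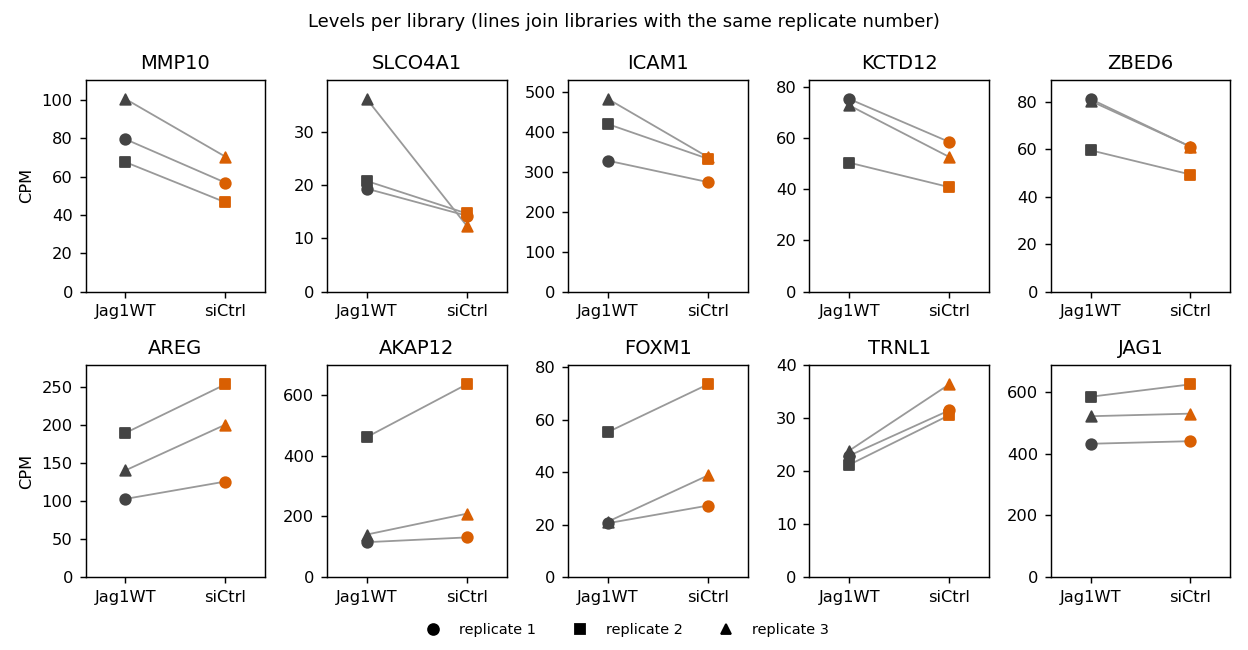
Level in CPM (y axes from 0) of the 9 genes with an FDR below 0.05 and of JAG1 in the 3 Jag1WT (dark) and 3 siCtrl (orange) libraries, with the shape giving the replicate number and lines joining the same number. Every line of the first row falls and every line of AREG, AKAP12, FOXM1 and TRNL1 rises, while the JAG1 lines are nearly level, at 433 to 441, 585 to 626 and 522 to 531 CPM.

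Among proliferation genes, FOXM1 passed the test and most G2 and M phase genes had a low unadjusted p in the same direction. FOXM1 is a transcription factor that drives genes of G2 and mitosis, and it lies at chr12:2857680-2877174 on the minus strand. Its level was 20.5, 55.3 and 21.1 CPM in Jag1WT and 27.2, 73.5 and 38.7 CPM in siCtrl. FOXM1 rose with a log2 fold change of 0.54 (SE 0.092, adjusted p 0.0235 by edgeR). The replicate 2 libraries were above the others in both groups, so the groups overlapped.

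None of the 54 G2 and M phase genes tested passed the FDR. Of these, 31 were higher and 0 lower at an unadjusted p below 0.05, against 4.81% and 4.74% of all genes, and 28 were higher in all 3 pairs (51.9%, against 16.7% of all genes). Their median log2 fold change was 0.25, against a median of all genes of 2.6e-05. The medians of the pairs were 0.045, 0.18 and 0.52 for replicates 1, 2 and 3, so the first pair showed little difference and the third the most. Without replicate 3 the count was 17, without replicate 1 it was 36, without replicate 2 it was 27, and with no block it was 1. Of these genes, 15 passed the FDR without replicate 1 and 7 without replicate 2. With no filter and all 6 libraries, 15 passed it as well.

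The mean log2(CPM + 1) of the 54 G2 and M phase genes was 4.28, 5.41 and 4.26 in Jag1WT and 4.33, 5.59 and 4.74 in siCtrl. The difference between replicate 2 and the other libraries of Jag1WT was thus larger than any difference within a pair. The median range of the replicate-number means over these genes was 1.37 on the log2 scale. The same mean was 4.55, 6.45 and 4.72 in siJag1.

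TPX2, a spindle assembly factor, was at 35.4, 106 and 33.1 CPM in Jag1WT and at 37.1, 145 and 58.8 CPM in siCtrl (adjusted p 0.0857 by edgeR). CCNB1, the mitotic cyclin B1, was at 20.4, 87.3 and 24.2 CPM in Jag1WT and at 28.9, 102 and 38.1 CPM in siCtrl (adjusted p 0.0677). BUB1, a spindle checkpoint kinase, had a log2 fold change of 0.41, and NCAPG, a condensin subunit, of 0.47, with adjusted p values of 0.108 and 0.0831. MYBL2, a transcription factor of late S and G2 phase, had the larger value of 0.85 (SE 0.17, adjusted p 0.0643) at a mean of 4.39 CPM in Jag1WT and 7.88 CPM in siCtrl. With the block, CCNB1 and MYBL2 passed the FDR with limma on log2(CPM + 1), limma on log2(CPM + 0.5) and robust empirical Bayes. NCAPG passed it with robust empirical Bayes. MYBL2 and TPX2 also passed it with no filter and without replicate 1. The other alternatives with the block are not listed for CCNB1, NCAPG and BUB1. With no replicate block none of these genes passed. CCNB1, NCAPG and MYBL2 are not members of the 54-gene list. Of the 54 genes, 45 had a promoter entry, and 32 of these (71.1%) held a CCAAT box. The share over all genes with an entry was 37.0%.

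In S phase, 15 of 45 genes were higher and 0 lower at an unadjusted p below 0.05, against 4.81% and 4.74% of all genes. The median log2 fold change was 0.17. CDC6, which loads the replicative helicase, was at 39.6, 83.5 and 31.4 CPM in Jag1WT and at 49.6, 92.7 and 59.2 CPM in siCtrl (adjusted p 0.114 by edgeR). RRM2, a subunit of ribonucleotide reductase, had a log2 fold change of 0.44 (adjusted p 0.152). The medians of the 3 pairs were 0.020, 0.21 and 0.22, so the first pair again showed the least. Without replicate 3 the count of higher members was 10, and with no block it was 3. Without replicate 1, 4 members passed the FDR, without replicate 2 it was 1, and with no filter it was 3.

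TRNL1, a mitochondrial leucine tRNA gene, is shown because it was the only mitochondrially encoded gene among the 9. Its sequence is read from hg38 and has no part marked.
TRNL1 (chrM:3230-3304, plus strand): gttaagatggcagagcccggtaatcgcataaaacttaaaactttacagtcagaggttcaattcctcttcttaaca
Its level was 22.9, 21.2 and 23.9 CPM in Jag1WT and 31.5, 30.6 and 36.4 CPM in siCtrl. The groups did not overlap and the replicate numbers hardly differed. TRNL1 rose with a log2 fold change of 0.52 (SE 0.089, adjusted p 0.0235 by edgeR), and with DESeq2 its adjusted p was 0.0785. Reads of a tRNA gene in a poly(A) library may come from unprocessed mitochondrial transcripts. TRND, the tRNA gene for aspartate, was at 12.9, 16.6 and 15.5 CPM in Jag1WT and 16.8, 21.4 and 30.6 CPM in siCtrl (adjusted p 0.0857).

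The 13 protein-coding genes of the mitochondrial genome lay on the same side. They encode subunits of the respiratory chain and ATP synthase, and are transcribed as long polycistronic RNAs, so they are not independent of each other. None passed the FDR in the fit as described. At an unadjusted p below 0.05, 12 were higher and 0 lower, against 4.81% and 4.74% of all genes. In all 3 pairs 10 were higher (76.9%, against 16.7% of all genes). Without replicate 1, 8 of them passed the FDR, and with DESeq2 ATP8 passed it. Their mean log2(CPM + 1) was 11.09, 11.24 and 11.11 in Jag1WT and 11.12, 11.58 and 11.46 in siCtrl, so the first pair was nearly level. ATP8 was at 751, 843 and 761 CPM in Jag1WT and 816, 1103 and 1066 CPM in siCtrl (adjusted p 0.112 by edgeR), and ND4L had a log2 fold change of 0.30 (adjusted p 0.141). Both overlap a neighbouring gene of the same strand. Without replicate 1, 13 members were higher at an unadjusted p below 0.05, without replicate 2 it was 6, without replicate 3 it was 9, and with no block it was 2.

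The interferon response, the reaction to foreign RNA most often looked for after siRNA transfection, passed for no gene in the fit as described. With limma on log2(CPM + 0.5) 1 interferon-stimulated gene was higher past the FDR, with no filter 2 were and without replicate 2, 1 was. OASL was a called gene in each of these alternatives. Of 48 interferon-stimulated genes listed, 41 were tested, 6 were higher and 0 lower at an unadjusted p below 0.05, 17 were higher in all 3 pairs (41.5%, against 16.7% of all genes) and 0 were lower in all 3 (against 14.1%). The median log2 fold change of the list was 0.12. The count of higher members was 4 without replicate 1 or 2, 9 without replicate 3 and 1 with no block. OASL, an oligoadenylate synthase-like protein, was at 2.27, 7.37 and 3.26 CPM in Jag1WT and 4.74, 11.0 and 6.01 CPM in siCtrl, a log2 fold change of 0.78 (SE 0.17, adjusted p 0.108 by edgeR). IFIT2, an RNA-binding interferon-induced protein, was at 16.5, 24.6 and 17.7 CPM in Jag1WT and 22.8, 32.6 and 24.0 CPM in siCtrl, a log2 fold change of 0.43 (SE 0.096, adjusted p 0.114). Each siCtrl library was above its partner for both genes. In siJag1, OASL was at 3.23, 6.44 and 4.27 CPM and IFIT2 at 16.2, 25.4 and 15.4 CPM.

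Of the list members that were not tested, CMPK2 was not analysed here and the other 6 were low. RSAD2 had 1 read in the 6 libraries together, and CXCL10 had 0. MX2 reached 0.848 CPM, CXCL11 0.877 CPM and RTP4 0.424 CPM at most, and EPSTI1 reached 1.21 CPM.

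Upstream of these genes, none of the 21 RNA sensors and interferon signalling genes tested passed the FDR. Of these, 2 were higher and 0 lower at an unadjusted p below 0.05. EIF2AK2, the double-stranded RNA-activated kinase PKR, was at 35.1, 34.6 and 35.7 CPM in Jag1WT and 37.9, 42.7 and 42.8 CPM in siCtrl (log2 fold change 0.22, adjusted p 0.393 by edgeR). Its groups did not overlap, and the difference was small. TLR7, TLR8 and the interferon gene IFNL1 had 1 read each in the 6 libraries, and ZBP1 and IFNL3 had 0.

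Of 17 MHC class I antigen presentation genes, which interferon also induces, 3 were higher and 0 lower at an unadjusted p below 0.05, and none passed the FDR. PSMB8, an immunoproteasome subunit, had a log2 fold change of 0.18 (adjusted p 0.473 by edgeR), and TAP2, a peptide transporter, of 0.15 (adjusted p 0.494).

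Apart from ICAM1, the 29 NF-kB and inflammatory genes tested had no member that passed. At an unadjusted p below 0.05, 1 was higher and 4 were lower, and the median log2 fold change was -0.015. The pairs disagreed: their medians were -0.053, -0.19 and 0.22. Without replicate 3, 0 members were higher and 11 were lower, with 3 of them below the FDR and a median of -0.14, and without replicate 2, 4 were higher and 2 lower. IL6, the cytokine interleukin 6, was at 142, 190 and 139 CPM in Jag1WT and 157, 191 and 242 CPM in siCtrl, so the difference came from the third pair (adjusted p 0.286 by edgeR).

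The RNA interference machinery itself showed no member past the FDR. All 17 genes were tested, 0 were higher and 1 was lower at an unadjusted p below 0.05. AGO4, an Argonaute protein, was at 34.1, 32.4 and 34.1 CPM in Jag1WT and 28.5, 29.7 and 30.6 CPM in siCtrl (log2 fold change -0.19, adjusted p 0.484 by edgeR). AGO3 had a log2 fold change of -0.14 (adjusted p 0.632).

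The lists chosen for the lipid carrier held no gene past the FDR. Of 31 lysosome and autophagy genes, 6 were higher and 1 lower at an unadjusted p below 0.05. CTSZ, a lysosomal cathepsin, was at 124, 128 and 131 CPM in Jag1WT and 138, 156 and 152 CPM in siCtrl (adjusted p 0.275 by edgeR), and MAP1LC3B, the autophagosome protein LC3B, had a log2 fold change of 0.20 (adjusted p 0.383). Of 25 endocytosis and caveolae genes, 3 were higher and 0 lower, with RAB5C of early endosomes and FLOT1 of flotillin domains both at a log2 fold change of 0.18 (adjusted p 0.375 and 0.381).

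Of 25 cholesterol synthesis and uptake genes, 1 was higher and 4 were lower at an unadjusted p below 0.05. HMGCS1, an enzyme early in cholesterol synthesis, was at 52.5, 57.5 and 71.7 CPM in Jag1WT and 49.0, 48.9 and 57.9 CPM in siCtrl (adjusted p 0.323 by edgeR), and STARD4, a sterol transfer protein, had a log2 fold change of -0.19 (adjusted p 0.413). Without replicate 3, the count of lower members was 0 and that of higher ones 3. Of 17 fatty acid synthesis and lipid efflux genes, 2 were higher and 1 lower, with ELOVL6, a fatty acid elongase, at a log2 fold change of 0.20 and SCD, the stearoyl-CoA desaturase, at -0.18 (adjusted p 0.402 and 0.448).

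Stress genes gave small values. Of 19 metallothioneins and oxidative stress genes, 5 were higher and 0 lower at an unadjusted p below 0.05, and none passed the FDR. HMOX1, heme oxygenase 1, was at 24.2, 21.4 and 23.5 CPM in Jag1WT and 30.1, 26.3 and 31.3 CPM in siCtrl (log2 fold change 0.33, SE 0.091, adjusted p 0.203 by edgeR), so its groups did not overlap. NQO1, a quinone reductase, had a log2 fold change of 0.25 (adjusted p 0.285). Of 32 genes of the ATF4 and integrated stress response, 4 were higher and 0 lower, and NUPR1 and PPP1R15A had log2 fold changes of 0.21 and 0.17 (adjusted p 0.367 and 0.427).

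Among the 21 ER folding and unfolded protein response genes, 0 were higher and 1 was lower at an unadjusted p below 0.05; EDEM1 was at -0.19 and DNAJB11 at 0.13 as log2 fold change (adjusted p 0.383 and 0.608 by edgeR). Of 17 heat shock proteins, 1 was higher and 0 lower, with HSPB1 at 0.15 and HSPD1 at 0.11 (adjusted p 0.509 and 0.626). Of 22 p53 targets and apoptosis genes, 2 were higher and 1 lower. GADD45A, a growth arrest gene, was at 89.0, 178 and 116 CPM in Jag1WT and 102, 207 and 159 CPM in siCtrl (adjusted p 0.141), and TP53INP1 had a log2 fold change of -0.32 (adjusted p 0.261). Of 28 immediate early genes, 4 were higher and 0 lower, with EGR2 at 1.04 (SE 0.30, adjusted p 0.219) on levels near 1 CPM and JUN at 0.20 (adjusted p 0.375).

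Genes that low oxygen induces had negative values mainly in the third pair. Of 35 hypoxia and glycolysis genes, 1 was higher and 11 were lower at an unadjusted p below 0.05, 11 were lower in all 3 pairs (31.4%, against 14.1% of all genes), and none passed the FDR. The medians of the 3 pairs were -0.014, -0.0056 and -0.28. LOX, a collagen cross-linking oxidase, was at 127, 112 and 213 CPM in Jag1WT and 116, 94.5 and 132 CPM in siCtrl (log2 fold change -0.37, SE 0.084, adjusted p 0.114 by edgeR), and BNIP3, a mitophagy receptor, was at 160, 239 and 277 CPM in Jag1WT and 145, 211 and 179 CPM in siCtrl (adjusted p 0.141). Jag1WT 3 was the highest library for both genes. Without replicate 3, 4 members were lower at an unadjusted p below 0.05 and the median was -0.0086. Without replicate 1 or 2, 6 and 8 members passed the FDR.

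**Figure D5:**
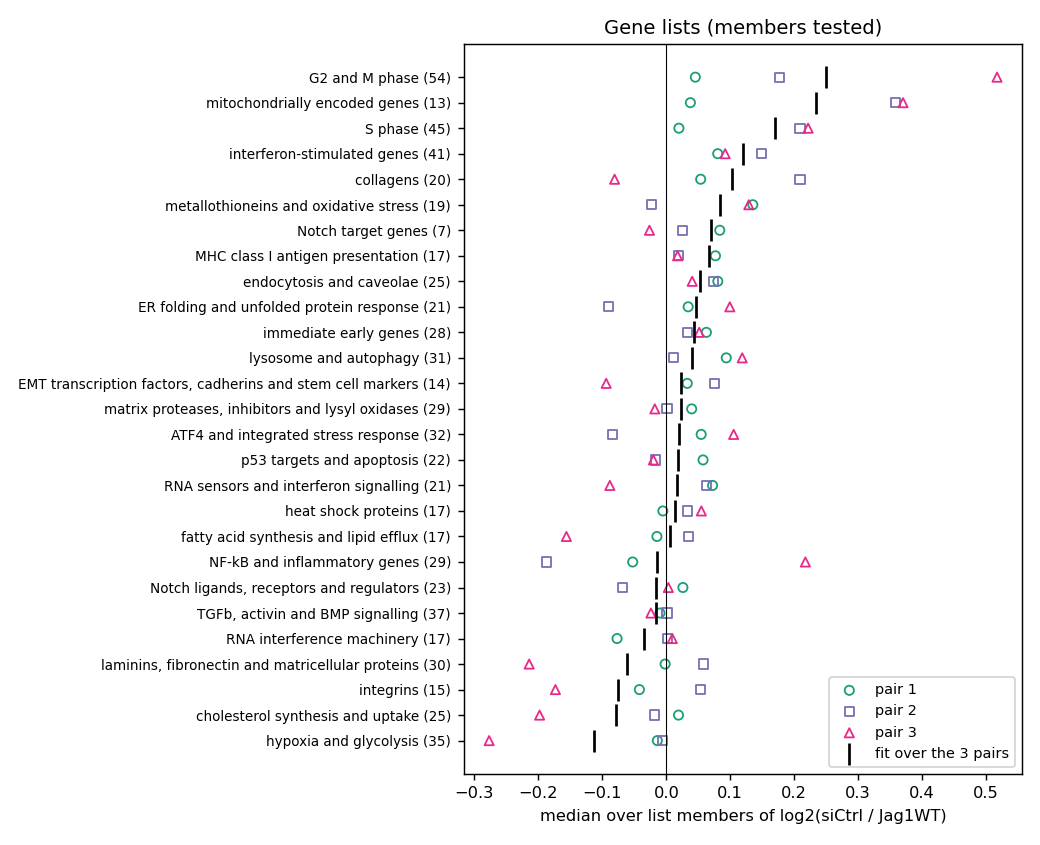
Median over the tested members of each gene list of the log2 difference of siCtrl over Jag1WT (x axis), for the 3 pairs (open symbols, log2(CPM + 1) scale) and for the fit over all pairs (black bars), with the number of members tested in brackets. The G2 and M phase list lies highest at 0.25 and the hypoxia and glycolysis list lowest at -0.11, and the third pair lies furthest from 0 in both.

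The matrix and adhesion lists held MMP10 and no other gene past the FDR. Of 29 matrix proteases, inhibitors and lysyl oxidases, 3 were higher and 4 lower at an unadjusted p below 0.05. Of 20 collagens, 2 were higher and 1 lower, with COL18A1 at a log2 fold change of 0.26 and COL7A1 at -0.19 (adjusted p 0.342 and 0.408 by edgeR). Without replicate 3, 7 collagens were higher and 0 lower. Of 15 integrins, 0 were higher and 2 lower: ITGA10, a collagen-binding subunit, was at 10.1, 9.32 and 21.8 CPM in Jag1WT and 6.36, 9.71 and 9.36 CPM in siCtrl (adjusted p 0.178), and ITGA1 had a log2 fold change of -0.27 (adjusted p 0.275). Jag1WT 3 was again the highest library for ITGA10. Without replicate 1 or 2, 3 integrins passed the FDR, and with no filter 2 did. Without replicate 3 none was lower at an unadjusted p below 0.05.

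Of 30 laminins, fibronectin and matricellular proteins, 1 was higher and 2 were lower at an unadjusted p below 0.05. The lower members were 9 without replicate 1 and 8 without replicate 2, and without replicate 3, 4 were higher and 1 lower and the median turned from -0.062 to 0.032. THBS1, the matricellular protein thrombospondin 1, was at 206, 190 and 253 CPM in Jag1WT and 258, 253 and 290 CPM in siCtrl (log2 fold change 0.30, SE 0.066, adjusted p 0.108 by edgeR). Of 37 TGFb, activin and BMP signalling genes, 2 were higher and 2 lower, with the receptors ACVR2B and BMPR1A at -0.25 and -0.30 (adjusted p 0.348 and 0.413). Of 14 EMT transcription factors, cadherins and stem cell markers, 1 was higher and 1 lower. CD24, a surface glycoprotein, was at 7.76, 7.37 and 23.8 CPM in Jag1WT and 7.57, 6.81 and 7.76 CPM in siCtrl, so its difference was that of Jag1WT 3 alone (adjusted p 0.281), and ALDH1A3, an aldehyde dehydrogenase, had a log2 fold change of 0.29 (adjusted p 0.330).

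The Notch pathway, the subject of the series, showed no difference that passed. Notch receptors on one cell bind ligands such as JAG1 on its neighbour, are cut by ADAM proteases and gamma-secretase, and then activate HES and HEY genes together with RBPJ. Of 32 Notch ligands, receptors and regulators, 23 were tested, and 0 were higher or lower at an unadjusted p below 0.05, against 4.81% and 4.74% of all genes. On a per-length scale, JAG1 was the most abundant of these at 85.8 ± 12.8 RPKM in Jag1WT and 88.9 ± 15.4 RPKM in siCtrl (SD, n = 3). NOTCH2 was at 35.1 ± 1.66 and 37.2 ± 1.85 RPKM, and NOTCH1 at 7.44 ± 0.722 and 7.89 ± 0.864 RPKM. LFNG, a glycosyltransferase that modifies Notch receptors, had a log2 fold change of -0.35 (SE 0.20, adjusted p 0.604 by edgeR), and NUMBL, an inhibitor of Notch, of 0.22 (adjusted p 0.666).

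Of 13 Notch target genes, 7 were tested and 0 were higher or lower at an unadjusted p below 0.05. HES1, a direct transcriptional target, was at 13.4, 11.2 and 22.3 CPM in Jag1WT and 12.7, 13.2 and 13.9 CPM in siCtrl (log2 fold change -0.20, SE 0.14, adjusted p 0.688 by edgeR). Its sign turned to 0.075 without replicate 3. MYC had a log2 fold change of 0.13 (SE 0.067, adjusted p 0.573). In siJag1, HES1 was at 5.50, 3.30 and 4.48 CPM.

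The remaining genes named by their p values did not pass the FDR in the fit as described. SOX4, a developmental transcription factor, was at 107, 82.0 and 154 CPM in Jag1WT and 87.8, 68.9 and 110 CPM in siCtrl (adjusted p 0.0643 by edgeR). MAPK13, a p38 kinase, was at 181, 201 and 228 CPM in Jag1WT and 154, 169 and 168 CPM in siCtrl (adjusted p 0.0857). ANKRD44, a subunit of protein phosphatase 6, had a log2 fold change of -0.44 (adjusted p 0.112).

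The series holds a second control transfection, Jag1KO + ctrl, in which JAG1 knockout cells were transfected with an empty plasmid, and its parent Jag1KO. It differs from siCtrl in nucleic acid, genotype and its libraries, so only the counts and the test of the difference are given. By the paper's account these cells were also kept under drug selection, whereas the siRNA was given 7 h before seeding. The effect of the plasmid and that of the selection cannot be told apart. No gene was called (0% of 12956) in Jag1KO + ctrl against Jag1KO by edgeR, with 753 at an unadjusted p below 0.05. The difference between both transfection effects was called for 0% of 12833 genes, with 1038 at an unadjusted p below 0.05. The log2 effect on SLCO4A1 was -0.85 for siCtrl against Jag1WT and 1.12 for Jag1KO + ctrl against Jag1KO. The difference of -2.03 had an adjusted p of 0.555 by edgeR. For KCTD12 the effects were -0.39 and 0.94, with a difference of -1.35 (adjusted p 0.555), and for TRNL1 they were 0.52 and -0.65, with a difference of 1.16 (adjusted p 0.555).

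These counts depended on 1 library, Jag1KO + ctrl 3, which was singled out after the counts were seen. It was at a distance of 0.547 and 0.639 from the other libraries of its group, which were 0.290 apart, and at 0.328 from Jag1KO 1. Jag1KO 1 also lay apart from its group, at 0.556 and 0.537 from Jag1KO 2 and 3, which were 0.254 apart. Without Jag1KO 1, 0 genes were called in either test. Without Jag1KO + ctrl 3, 310 of 12956 genes were called in Jag1KO + ctrl against Jag1KO and 759 of 12833 in the difference of the effects. Of the 9 genes that passed in siCtrl, 3 then passed in the difference: SLCO4A1 (-2.27, adjusted p 0.00891 by edgeR), KCTD12 (-1.65, adjusted p 0.00845) and TRNL1 (1.32, adjusted p 0.0118). Over all genes, 834 of 12833 passed the FDR in that difference. The 9 genes were picked for their siCtrl effect, which is a part of the difference, so their passing is not separate evidence.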

How the data were processed

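Poly(A) RNA of day 7 spheroids was sequenced from stranded TruSeq libraries made from 300 ng of total RNA. The authors mapped reads to hg38 and counted uniquely mapped reads per gene, and these raw counts are one deposited table. The deposited CPM are a signal that the authors scaled with TMM factors of edgeR: they are counts divided by the scaled library size, in CPM units. The deposited RPKM are these values per kilobase of gene, and 3 RPKM columns whose names match no label were not used. The submitters' processing notes name featureCounts, R 3.6.1, edgeR 3.28.0 and MultiQC 1.5 without roles; the aligner is not given in the sources used here.

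Groups were taken from the labels. Of 21411 rows, 292 without a gene symbol (0.0330% to 0.0405% of the counts of the 6 libraries) were left out. Counts of the 6 libraries were tested with edgeR 4.0.16 in R 4.3.3 (TMM, estimateDisp, glmQLFit and glmQLFTest, with the replicate number as block) for genes above 1 CPM in at least 3 libraries. P-values were adjusted by Benjamini-Hochberg over all 12797 genes, and a gene was called at an FDR below 0.05 and a fold above 1.5. Fold changes of the fit are on the scale of edgeR, and those of single pairs are on log2(CPM + 1). The pairing by replicate number was part of the definition of the comparison. Deviations from the group means correlated across genes at 0.595, 0.713 and 0.210 for the 3 numbers. For unmatched libraries the values were 0.179 (siCtrl 3 with Jag1WT 1), 0.155 (siCtrl 1 with Jag1WT 3) and otherwise -0.636 to -0.265. The third pair was thus hardly closer than these 2 unmatched ones. The sources used here do not say what a shared number marks. The labels call the libraries of a group biological replicates. The second control transfection was tested with no block, and the difference of both transfection effects as an interaction over 12 libraries with genes above 1 CPM in at least 6. The fits were tested on simulated data with known changes. Alternatives were limma 3.58.1, DESeq2 1.42.0, other scaling factors and filters, and fits without single libraries or pairs.

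Named genes were JAG1, called genes (up to 12 per direction), genes of smallest p above 5 CPM with the same direction in all 3 pairs (up to 8 per direction), and the called or otherwise the 2 members of smallest p of each list. The comparison, the lists and the motifs were chosen with earlier results of these data known, and the counts of list members under each alternative were added after seeing the data. No chance test was made for a list. Values of some genes that this rule names are not reported here.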

Additional observations from a re-analysis of the deposited data

How the results depend on the processing

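The count of called genes was 1 in the fit as described and also 1 with RLE factors, with a filter at 5 CPM and with robust empirical Bayes, where the gene was MYBL2 and not SLCO4A1. It was 0 with no replicate block, with limma with no replicate block, with DESeq2 (where the adjusted p of SLCO4A1 was not given) and with total counts only, 2 with limma on log2(CPM + 1), 3 with limma on log2(CPM + 0.5) and 19 with no filter. The number of genes with an FDR below 0.05 was 9 in the fit as described, 0 with no replicate block, 16 with limma on log2(CPM + 0.5), 134 with no filter, 6 with DESeq2 and 13 with robust empirical Bayes. Why the unfiltered table gave more was not tested. Leaving out libraries gave 0 to 40 called genes and 0 to 113 genes below the FDR: each of the 6 libraries left out with no block gave 0, and leaving out the pair of replicate 1, 2 or 3 gave 30, 40 or 2 called genes from a fit with fewer libraries. MMP10, AREG, FOXM1 and ICAM1 passed in all 11 alternatives with the block and in 0 of the 8 with no block. The JAG1 value ranged from -0.090 to 0.16 when libraries were left out, and no alternative gave an adjusted p below 0.05.

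Over the fits that left out libraries, the log2 fold change ran for AKAP12 from -0.50 to 1.35, for CCNB1 from -0.39 to 1.33, for NCAPG from -0.39 to 1.39, for TPX2 from -0.29 to 1.23, for BUB1 from -0.22 to 1.09, for MAP1LC3B from -0.087 to 0.55, for JUN from -0.032 to 0.49, for SCD from -0.33 to 0.00062 and for HES1 from -0.43 to 0.11. AKAP12, CCNB1, NCAPG, TPX2, BUB1, MAP1LC3B and JUN were below 0 without siCtrl 2 and with no block, JUN also without Jag1WT 1, and SCD and HES1 were above 0 without Jag1WT 3. In the gene lists for which no count without a pair or the block is given above, 0 to 7 members lay in either direction at an unadjusted p below 0.05. The replicate block gave 0 called genes in Jag1KO + ctrl against Jag1KO and 0 in the difference of both transfections; leaving out single libraries gave 0 to 310 and 0 to 759, and only the fits without Jag1KO + ctrl 3 were above 0. With 3 pairs and 2 residual degrees of freedom, the spread of a gene rests largely on the spread shared over all genes.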
